A study of Homo sapiens with 12 samples.

Results

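The colony-stimulating factor genes CSF1, CSF2 and CSF3 were described across 12 RNA-seq libraries of the human monocytic leukaemia line THP-1. They were chosen by name, and all 3 members were found among the 3281 genes that the authors listed as changed by lipopolysaccharide (LPS) in at least 1 genotype. CSF1 encodes M-CSF, which keeps macrophages alive and drives their development through the receptor CSF1R. CSF2 encodes GM-CSF, which activates macrophages and granulocytes through CSF2RA and CSF2RB. CSF3 encodes G-CSF, which drives neutrophil production through CSF3R. Activated macrophages can make all of them, and the NF-κB family of transcription factors is known to act on their genes after LPS, a bacterial membrane component sensed by Toll-like receptor 4.

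The study asked whether phosphorylation of serine 80 of the NF-κB subunit p50, made from NFKB1, affects transcription after LPS. There were 4 groups of 3 libraries: NFKB1 S80A cells at 3 hr of LPS, WT cells at 3 hr of LPS, S80A cells at 0 hr and WT cells at 0 hr. In S80A, the serine is replaced by alanine. Cells of all 4 groups had been differentiated towards macrophages with the phorbol ester PMA (25 ng/ml, 72 hours) and rested for 4 days, and the LPS dose was 10 ng/ml. No label states how the edit was introduced or whether the S80A cells derive from one clone, so the edit and any other difference between the lines cannot be told apart. The labels do not tie replicates to independent cultures, so p-values here describe a spread between libraries that may be technical.

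Values are scaled reads, which are reads per gene divided by the authors' size factor of each library, and log2 values are on the log2(scaled reads + 1) scale. The listed genes held 1924562 to 5789918 reads per library. Genes outside the authors' lists were not analysed here. On the second principal component of the listed genes (17.6% of the variance), which separated the genotypes, S80A replicate 1 scored 16.9 at 3 hr and 16.7 at 0 hr, while the other S80A libraries scored 32.7 to 46.7 and the WT libraries were all below 0. Results are therefore also given without that replicate. Of the 9 macrophage or monocyte markers, CD14 and CD163 were listed, and CD14 averaged 1479 ± 396 scaled reads in S80A cells and 875 ± 194 in WT cells at 3 hr (SD, n = 3 each). CD163 averaged 785 ± 192 in S80A cells and 1128 ± 254 in WT cells at 3 hr, and 1015 ± 136 in S80A cells and 2297 ± 836 in WT cells at 0 hr, and no genotype difference of either marker passed the test (lowest limma adjusted p = 0.0509, for CD163 at 0 hr). Of the 18 markers of other cell types, only the B cell marker CD79B was listed, at 10.8 ± 2.17 scaled reads in S80A cells and 10.0 ± 4.77 in WT cells at 3 hr. A point change leaves reads of NFKB1 in place, so its counts do not check the genotype; NFKB1 averaged 23198 ± 4621 scaled reads in S80A cells and 23290.2 ± 713 in WT cells at 3 hr.

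The 3 genes lie on different chromosomes, all on the plus strand (GENCODE 29, GRCh38). CSF1 (ENSG00000184371) is at chr1:109910242-109930992, CSF2 (ENSG00000164400) at chr5:132073790-132076170 and CSF3 (ENSG00000108342) at chr17:40015361-40017813. No annotated gene overlapped any of them. Within 100 kb, no gene near CSF1 or CSF2 was listed, while GSDMA at 37.6 kb, THRA at 40.5 kb and ORMDL3 at 87.8 kb from CSF3 were.

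CSF2 and CSF3 mRNAs are known to be short-lived, and AUUUA pentamers in 3′ untranslated regions are known to recruit proteins that speed mRNA decay. The 30-base window of each 3′ untranslated region with the most pentamers is shown because the members differ in it. It is written as DNA of the GENCODE transcript, with the ATTTA matches in capitals.
CSF2: ATTTATTTATTTATTTATTTAagttcatat
CSF3: ATTTAtctctATTTAatATTTAtgtctatt
CSF1: ATTTAaatatctATTTAaaagataggaagc
The CSF2 window, at chr5:132076081-132076110, held 5 overlapping pentamers, and the whole 3′ untranslated region held 8 in 318 bases. A window with at least 5 was found in 41 of 18965 genes (0.216%) and in 9 of 2773 listed genes (0.325%). The CSF3 window, at chr17:40016983-40017012, held 3 pentamers, a number reached in 3.00% of genes and 4.33% of listed genes, and its region held 7 in 854 bases. The CSF1 window, at chr1:109930924-109930953, held 2, reached in 22.8% of genes and 28.3% of listed genes, and its region held 4 in 2154 bases. So the densest run was in CSF2, and CSF1 had the sparsest region of the 3.

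The promoter of CSF2 is shown because κB-type and neighbouring elements close to its start site are well known. The stretch is chr5:132073539-132073838 on the plus strand (RefSeq, GRCh38.p14), 250 bases before to 50 after the start, with motif matches in capitals. RefSeq promoters were matched for 1 of the 3 members.
CSF2 promoter: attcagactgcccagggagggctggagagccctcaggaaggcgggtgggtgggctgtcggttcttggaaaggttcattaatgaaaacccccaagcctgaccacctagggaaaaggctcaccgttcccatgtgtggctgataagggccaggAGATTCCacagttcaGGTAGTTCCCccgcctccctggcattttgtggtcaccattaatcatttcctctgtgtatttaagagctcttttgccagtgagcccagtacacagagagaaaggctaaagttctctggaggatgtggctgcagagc
The pattern GGGNNNNNCC, searched on both strands, matched once, on the minus strand, 85 to 76 bases before the start. It occurs in 58.7% of 35116 RefSeq promoters of this length and in 70.9% of 3403 promoters of listed genes, so the match itself is common. The core of the CK-1 element, AGATTCC, matched on the plus strand 100 to 94 bases before the start, and occurs in 3.39% of promoters. The 2 matches do not overlap. The AP-1 pattern TGANTCA, found in 7.71% of promoters, had no match in this window.

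CSF1 was the most abundant member, was called by the authors as raised by LPS in both genotypes, and was already high in S80A cells before LPS. At 3 hr its scaled reads were 968, 7320 and 8026 in S80A cells and 901, 2066 and 1663 in WT cells. At 0 hr they were 119, 883 and 779 in S80A cells and 17.3, 40.2 and 32.3 in WT cells. Every S80A library at 0 hr was above every WT library at 0 hr, whereas at 3 hr S80A replicate 1 lay among the WT libraries. Replicate 1 was the lowest of its group in all 4 groups.

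At 0 hr CSF1 averaged 593 ± 414 scaled reads in S80A cells and 29.9 ± 11.6 in WT cells (SD, n = 3 each), a ratio of means of 19.8. The difference was 3.89 ± 0.86 on the log2 scale (SE; limma adjusted p = 0.0249; 95% interval 1.72 to 6.07). It ranked 29th from the top of the 3281 genes, of which 20.1% were called higher in S80A cells at 0 hr and 31.6% had all 3 S80A libraries above all 3 WT libraries. In bulk RNA, more cells with the transcript and more transcript per cell cannot be told apart. The call was lost when any 1 of 5 of the 6 libraries was left out: the limma adjusted p was 0.0810 without S80A replicate 2, 0.0676 without S80A replicate 3, and 0.0787, 0.0641 and 0.0766 without WT replicates 1, 2 and 3. It held without S80A replicate 1 (limma adjusted p = 0.00293). The difference lay between 3.38 and 4.82 in these fits.

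At 3 hr CSF1 averaged 5438 ± 3887 scaled reads in S80A cells and 1543 ± 592 in WT cells (SD, n = 3 each), a ratio of means of 3.52. The difference of 1.40 ± 0.83 on the log2 scale did not pass the threshold (SE; limma adjusted p = 0.205; 95% interval -0.57 to 3.37). S80A libraries were higher in 7 of 9 pairings with a WT library. Without S80A replicate 1 the difference was 2.39 (limma adjusted p = 0.00397), so that library decides the limma call. With all libraries kept, DESeq2 called the difference (1.82, adjusted p = 0.0115) and edgeR did not (adjusted p = 0.0559).

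CSF1 rose after LPS in both genotypes by the authors' calls, and each S80A replicate had a smaller ratio of 3 hr to 0 hr than each WT replicate. In the authors' deposited table the log2 fold change of 3 hr over 0 hr was 2.72 in S80A cells (adjusted p = 0.000704) and 4.47 in WT cells (adjusted p = 4.11e-09). The authors called 8.67% of 17486 tested genes as raised in S80A cells and 8.24% in WT cells, and the members were taken from those lists. The ratio of 3 hr to 0 hr within each replicate number was 8.16, 8.29 and 10.3 in S80A cells and 52.0, 51.4 and 51.5 in WT cells. The ratios of the genotypes did not overlap, and S80A replicate 1, low at both times, had a ratio like those of S80A replicates 2 and 3. An exact two-sided permutation test of these ratios gave p = 0.1, the smallest value that 3 against 3 allows.

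Tested over all listed genes without pairing, the difference of the CSF1 response was -2.49 ± 1.25 on the log2 scale and did not pass (SE; limma adjusted p = 0.192; 95% interval -5.24 to 0.25). With the replicate number as a block within each genotype, a fit chosen after the data were seen, the same difference had an SE of 0.23 and a limma adjusted p of 0.00315. That fit called this difference below 0 for 9.78% of genes, and the fit without the block for 6.95%. The block pairs libraries by replicate number, which is unclear for WT replicates 2 and 3. Without S80A replicate 1 at both times the difference was -2.43 (limma adjusted p = 0.0159). Leaving out single libraries, it lay between -3.43 (without S80A replicate 1 at 0 hr) and -1.50 (without S80A replicate 1 at 3 hr), and it passed in none of these 12 fits (limma adjusted p = 0.0538 to 0.348).

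**Figure D1:**
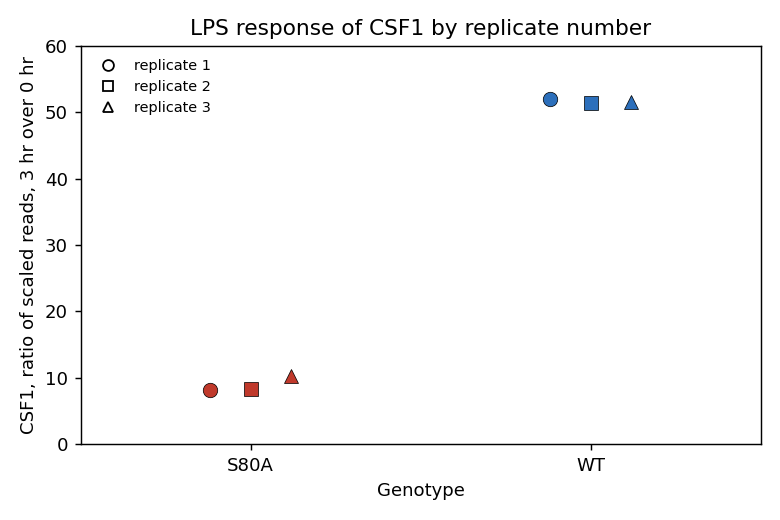
The ratio of CSF1 scaled reads at 3 hr over 0 hr (vertical axis, linear) for each replicate number, S80A cells on the left and WT cells on the right. The S80A ratios lie between 8.16 and 10.3 and the WT ratios between 51.4 and 52.0.

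CSF2 was read only after LPS, and much more in S80A than in WT cells. At 3 hr its scaled reads were 122, 430 and 552 in S80A cells and 37.6, 6.23 and 4.28 in WT cells. All 6 libraries at 0 hr held 0 reads, where a count of 0 allows a group mean of up to 0.924 scaled reads in S80A cells and 0.825 in WT cells (3 reads over the group, counting error only). The lowest S80A library at 3 hr, replicate 1, lay above the highest WT library, which was also replicate 1.

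At 3 hr CSF2 averaged 368 ± 221 scaled reads in S80A cells and 16.0 ± 18.7 in WT cells (SD, n = 3 each), from 943 and 42 reads in all, a ratio of means of 23.0. The difference was 4.76 ± 0.87 on the log2 scale (SE; limma adjusted p = 0.00523; 95% interval 2.69 to 6.83), the 7th highest of the 3281 genes. Of these genes, 29.2% were called higher in S80A cells at 3 hr and 35.7% had all 3 S80A libraries above all 3 WT libraries. The call passed in all 15 other fits of this comparison, with differences of 4.21 to 5.64 and adjusted p-values up to 0.0239. Without S80A replicate 1 the difference was 5.42 (limma adjusted p = 0.00430).

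The authors' deposited table gives CSF2 a log2 fold change of 6.33 in S80A cells (adjusted p = 2.24e-11) and 2.83 in WT cells (adjusted p = 0.00758). Against the 3-read floor per group, the level at 3 hr was at least 393-fold higher than at 0 hr in S80A cells and at least 18.5-fold higher in WT cells. Because all libraries at 0 hr were at 0, the difference of the response equals the 3 hr difference, 4.76 ± 0.97 (SE; limma adjusted p = 0.0106). The fit pools the spread of all 4 groups, and CSF2 had none at 0 hr. Its p-value is therefore not set by the 3 hr spread alone. For the difference of the response, 7.19% of genes were called higher in S80A cells and 14.1% in either direction. The count-based tests of the response did not call it, with an adjusted p of 1.00 in edgeR and 0.206 in DESeq2, while both called the 3 hr difference (adjusted p = 0.00332 and 2.23e-08).

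CSF3 had few reads and was the only member with a lower mean in S80A than in WT cells after LPS. At 3 hr its scaled reads were 17.9, 8.05 and 74.3 in S80A cells and 116, 48.8 and 41.8 in WT cells. At 0 hr they were 0, 0.776 and 4.20 in S80A cells, from 5 reads in all, and 0 in each WT library. The ranges at 3 hr overlapped, because S80A replicate 3 lay above WT replicates 2 and 3.

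At 3 hr CSF3 averaged 33.4 ± 35.8 scaled reads in S80A cells and 68.9 ± 41.1 in WT cells (SD, n = 3 each), from 85 and 185 reads, a ratio of means of 0.485. The difference of -1.42 ± 0.79 on the log2 scale did not pass the threshold (SE; limma adjusted p = 0.178; 95% interval -3.30 to 0.45), against 17.7% of genes called lower in S80A cells at 3 hr. Without S80A replicate 3 it was -2.27 (limma adjusted p = 0.0244), so that library decides the call. Without S80A replicate 1 it was -1.27 (limma adjusted p = 0.306). At 0 hr the difference of 1.07 ± 0.61 did not pass either (SE; limma adjusted p = 0.231).

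In the authors' deposited table CSF3 rose after LPS by 3.37 on the log2 scale in S80A cells (adjusted p = 7.64e-05) and by 5.57 in WT cells (adjusted p = 1.08e-10). Summed over libraries, the level at 3 hr was 21.3 times that at 0 hr in S80A cells (95% exact counting interval 8.76 to 67.2), and in WT cells it was at least 81.6-fold higher. The difference of the response was -2.49 ± 1.06 without pairing (SE; limma adjusted p = 0.130; 95% interval -4.82 to -0.17). With the replicate block within each genotype its SE was 0.59 and its limma adjusted p was 0.0298, and without S80A replicate 3 at 3 hr the unpaired difference was -3.33 (limma adjusted p = 0.0362). Without S80A replicate 1 at both times it was -2.87 (limma adjusted p = 0.104).

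**Figure D2:**
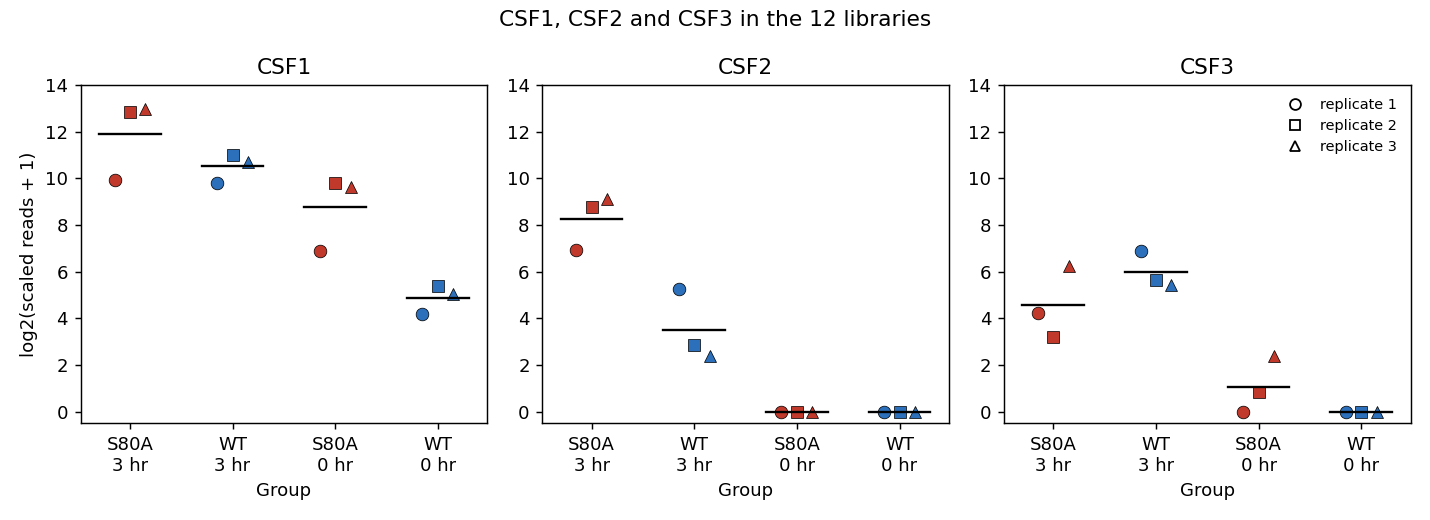
log2(scaled reads + 1) of CSF1, CSF2 and CSF3 in the 12 libraries, with a panel per gene, a symbol per replicate number, S80A in red, WT in blue and the group mean as a line. CSF2 is at 0 in all libraries at 0 hr and lies higher in every S80A than in every WT library at 3 hr, while CSF1 is separated by genotype at 0 hr and CSF3 overlaps at both times.

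**Figure D3:**
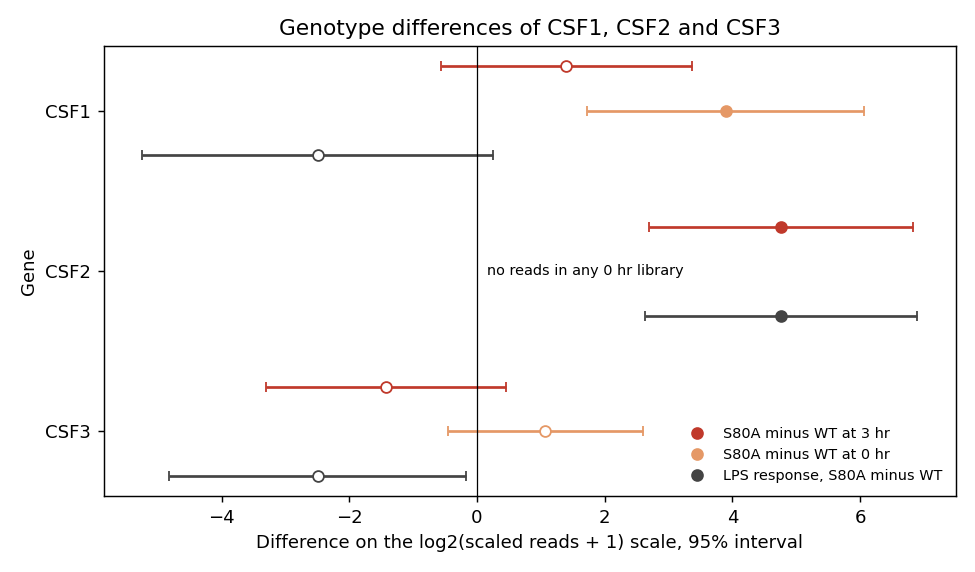
The S80A minus WT difference of each member at 3 hr, at 0 hr and in the LPS response, on the log2(scaled reads + 1) scale with its 95% interval. Filled points passed the limma adjusted p threshold of 0.05: CSF1 at 0 hr (3.89), and CSF2 at 3 hr (4.76) and in the response (4.76).

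Levels of different genes can be set side by side only per length. In S80A cells at 3 hr, CSF1 had 1004 ± 717 scaled reads per kb of exon, CSF2 468 ± 281 and CSF3 15.1 ± 16.1 (SD, n = 3). In WT cells at 3 hr, CSF1 had 285 ± 109, CSF3 31.1 ± 18.5 and CSF2 20.4 ± 23.8 scaled reads per kb. The ranges of CSF1 and CSF2 overlapped in S80A cells and those of CSF3 and CSF2 overlapped in WT cells, while all other neighbours in these orders were apart. Within each library at 3 hr, however, CSF1 was above CSF2 per kb in S80A cells, and CSF3 was above CSF2 in WT cells. At 0 hr CSF1 had 110 ± 76.5 scaled reads per kb in S80A cells and 5.52 ± 2.15 in WT cells, and CSF3 had 0.747 ± 1.01 in S80A cells.

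The listed genes whose log2 values followed each member most closely over the 12 libraries are given as a description, since all libraries share the LPS and genotype contrasts. For CSF1 they were USP42 (Pearson r = 0.978), LGALS3 (0.977), PIM1 (0.977), TSC22D2 (0.975) and AC147651.4 (0.974). PIM1, a kinase induced by cytokine receptors, averaged 12873 ± 5883 scaled reads in S80A cells and 4281 ± 594 in WT cells at 3 hr. For CSF2 they were SELE (0.988), the endothelial adhesion molecule E-selectin, then TUBB2B (0.984), SVIL (0.981), PDGFB (0.979), a growth factor for mesenchymal cells, and PVR (0.978). For CSF3 they were LOC101927369 (0.962), WNT5A (0.961), EGR3 (0.960), CSRP2 (0.953) and LTA (0.952), a lymphotoxin of the TNF family. The members were less close to one another. Their r was 0.759 for CSF1 with CSF2, 0.778 for CSF1 with CSF3 and 0.710 for CSF2 with CSF3. Over the 6 libraries at 3 hr, which mix the genotypes, r of CSF3 was weak, at -0.295 with CSF1 and -0.339 with CSF2. Within WT cells at 3 hr, CSF2 and CSF3 ranked the replicates alike, while CSF1 was lowest where CSF3 was highest. Within S80A cells at 3 hr, all 3 members were highest in replicate 3.

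Other genes of the CSF pathways were described from lists by role. Of 9 receptors and other ligands of the CSF receptors, only IL3RA, the IL-3 receptor subunit that pairs with CSF2RB, was listed. CSF1R, CSF2RA, CSF2RB and CSF3R were not analysed here. IL3RA was called raised in both genotypes, and its difference between S80A and WT cells at 3 hr was 1.02 ± 0.24 on the log2 scale (SE; limma adjusted p = 0.0141), with an adjusted p of up to 0.0587 when S80A replicate 2 or WT replicate 3 was left out.

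Of 28 genes of signalling from the CSF receptors, 19 were listed. The authors called 15 raised and 2 lowered in S80A cells, and 13 raised and 1 lowered in WT cells. Of all 3281 listed genes, they called 1516 raised and 992 lowered in S80A cells, and 1441 and 894 in WT cells. A gene is listed only if it was called for LPS in at least 1 genotype, so such counts are high by selection. At 3 hr, 7 of the 19 were called higher and 6 lower in S80A than in WT cells. The median difference of the 19 was -0.0030 on the log2 scale. Over all listed genes, 29.2% were called higher and 17.7% lower, and the median was 0.19. Of these 13 calls, those of JAK1, STAT5A, CBLB, BCL2L1, PIK3CD, PTPN6 and CISH passed in every other fit. STAT5A, a transcription factor activated by the GM-CSF receptor, averaged 12718 ± 1248 scaled reads in S80A cells and 6586 ± 144 in WT cells at 3 hr. PIK3CD, a catalytic subunit of PI3-kinase, averaged 562 ± 90.6 in S80A cells and 4953 ± 373 in WT cells, and PTPN6, the phosphatase SHP-1, averaged 367 ± 63.0 in S80A cells and 1558 ± 35.9 in WT cells. These phosphatase and kinase subunits were thus lower in S80A cells while the STAT was higher. MYC, a growth regulator induced by CSF1, was higher in S80A cells at 3 hr (2741 ± 566 against 1404 ± 159 in WT cells) and lower at 0 hr (775 ± 120 against 2024 ± 290 in WT cells). The limma adjusted p for MYC was 0.0150 at 3 hr, 0.0575 without WT replicate 2, and 0.00609 at 0 hr, where 10.6% of all listed genes were called lower in S80A cells.

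Of 11 RNA-binding regulators of AU-rich mRNAs, 3 were listed, and in both genotypes ZFP36 and ZC3H12A were called raised and ZFP36L1 lowered. ZFP36L1, which promotes decay of AU-rich mRNAs, was higher in S80A cells at 3 hr by 1.77 ± 0.42 and at 0 hr by 1.10 ± 0.16 on the log2 scale (SE; limma adjusted p = 0.0141 and 0.00852). ZC3H12A, the RNA-cleaving regnase-1, averaged 9327 ± 2128 scaled reads in S80A cells and 13687 ± 902 in WT cells at 3 hr, a difference that did not pass (limma adjusted p = 0.0740).

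Of 22 transcription factors known to bind CSF promoters or enhancers, 19 were listed. In each genotype 16 were called raised and 1, CEBPA, lowered. Of all 3281 listed genes, 1516 were called raised in S80A cells and 1441 in WT cells. At 3 hr, 5 of the 19 were called higher and 2 lower in S80A than in WT cells, with a median difference of 0.26. The shares over all listed genes were 29.2% and 17.7%. The calls of ETS1, FOSL2, RUNX1 and CEBPA passed in every other fit, while those of FOSL1, NFATC1 and NFKB2 were lost in 7, 5 and 7 of them. ETS1, known to bind the CSF2 promoter in T cells, averaged 25415 ± 9965 scaled reads in S80A cells and 2453 ± 47.6 in WT cells at 3 hr, and 12369.8 ± 3984 in S80A cells and 1799 ± 223 in WT cells at 0 hr. RUNX1 and FOSL2 were higher in S80A cells at 3 hr by 1.07 ± 0.18 and 1.43 ± 0.25 on the log2 scale (SE; limma adjusted p = 0.00439 and 0.00470), while their differences at 0 hr of -0.19 and -0.01 did not pass. RELA, REL and RELB, subunits of NF-κB, differed by 0.37, -0.11 and -0.12 at 3 hr, and none passed (limma adjusted p = 0.248, 0.776 and 0.613). NFKB2, another subunit, was called lower in S80A cells at 3 hr, with a difference of -0.64 (limma adjusted p = 0.0421). That call was lost without S80A replicate 2 or 3 or any WT replicate, with an adjusted p of up to 0.131.

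Of 13 other blood cell growth factors and inducers of CSF genes, 8 were listed, and all 8 were called raised in both genotypes. Of all 3281 listed genes, 1516 were called raised in S80A cells and 1441 in WT cells. At 3 hr, 5 of the 8 were called higher and 1 lower in S80A cells, with a median difference of 1.37, beside 29.2% and 17.7% of all listed genes and their median of 0.19. TSLP, a cytokine of the IL-7 family, averaged 1131 ± 503 scaled reads in S80A cells and 78.5 ± 16.8 in WT cells, and KITLG, the ligand of KIT on blood stem cells, 940 ± 172 in S80A cells and 365 ± 43.8 in WT cells. IL6, an acute-phase inducer, was lower in S80A cells, at 272 ± 69.2 in S80A cells and 1538 ± 188 in WT cells. TSLP, KITLG and IL6 passed in every other fit. The calls of LIF, IL1A and IL1B, all higher in S80A cells at 3 hr, were lost when single libraries were left out, with adjusted p-values of up to 0.0942, 0.0984 and 0.0583. The call of LIF was also lost with the replicate block, and that of IL1B in 1 fit of all 12 libraries (limma adjusted p = 0.290). TNF, which can induce all 3 CSF genes, averaged 13280.2 ± 2747 in S80A cells and 15401 ± 1199.9 in WT cells, a difference that did not pass (limma adjusted p = 0.421).

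**Figure D4:**
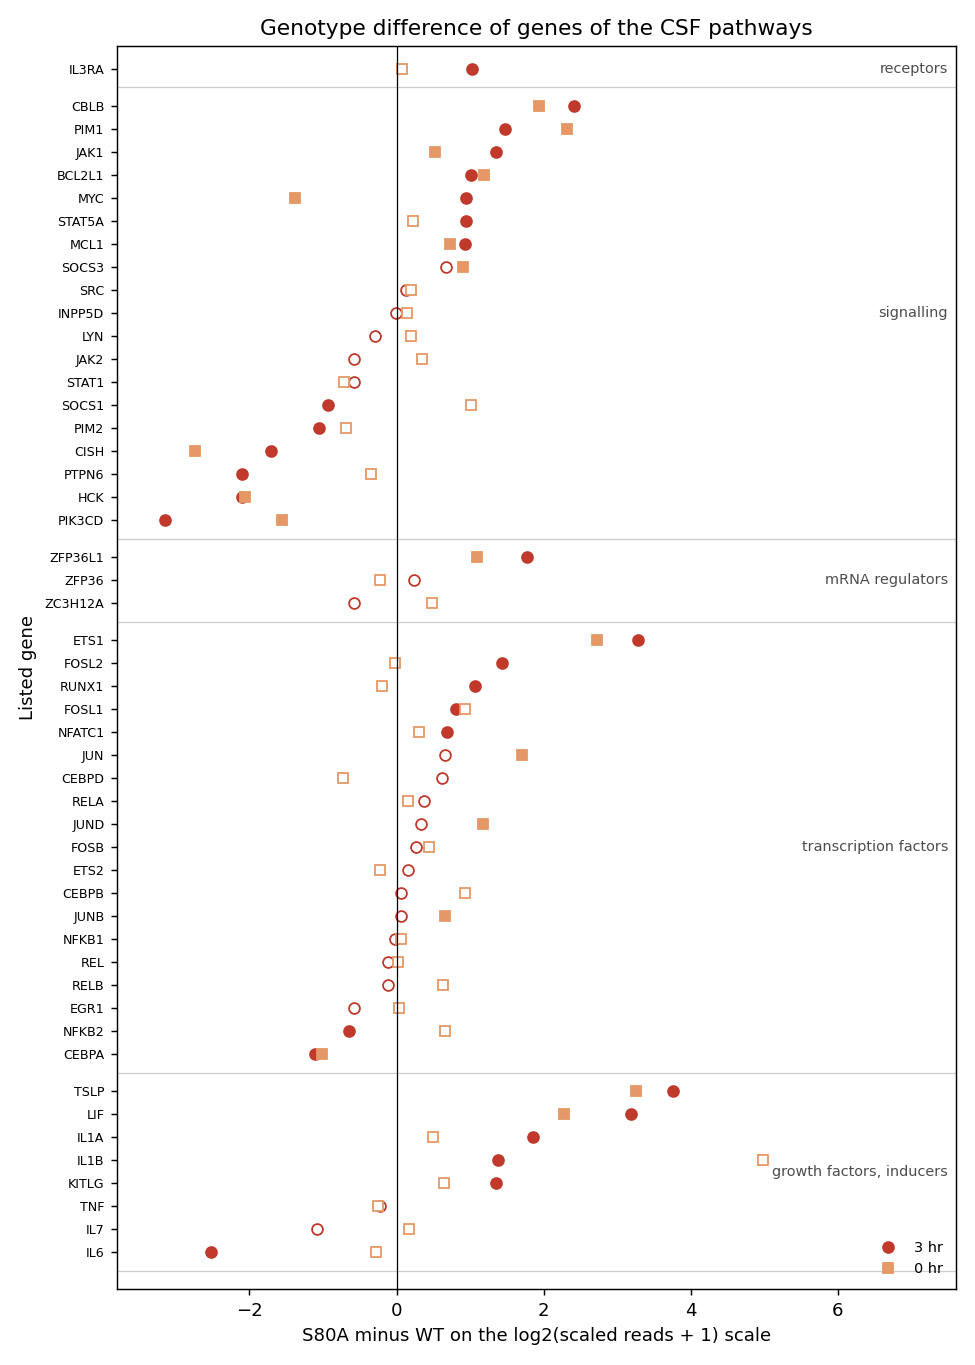
The S80A minus WT difference on the log2(scaled reads + 1) scale (horizontal axis) for each listed pathway gene, grouped by role, at 3 hr (red circles) and 0 hr (orange squares). Filled symbols passed the limma adjusted p threshold of 0.05; ETS1, TSLP and LIF lie to the right at both times, and PIK3CD and CISH to the left.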

How the data were processed

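Per the labels' protocols, poly(A) RNA went into stranded TruSeq libraries read as single-end 75-base reads on a NextSeq 500. HISAT, StringTie, Cuffdiff, HTSeq, DESeq2, FastQC and the build GRCh38 are named, without versions or roles, per the submitters' processing notes. Which annotation was counted, and whether counting used strand, is not given in the sources used here. In all, the authors deposited 2 tables of listed genes (2508 for S80A, 2335 for WT, 1562 in both) holding their log2 fold changes, their p-values and adjusted p-values, and a signal per library. The deposited signal values were whole reads divided by size factors of 0.834 to 1.29, since 100% were whole multiples of each library's step to within 0.01 reads. The recovery could not be checked separately for S80A replicate 1 at 0 hr, whose step is close to 1. All listed genes had an authors' adjusted p under 0.01 and a log2 fold change past 1 in size.

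The members and lists were chosen with earlier results of these data known. Named genes are the members, every listed gene of the pathway lists, and the 5 listed genes most correlated with each member. Differences were tested with limma 3.58.1 (R 4.3.3) on log2(scaled reads + 1), two-sided, with Benjamini-Hochberg adjustment over 3281 genes and a threshold of 0.05, using the 6 libraries of each comparison, or all 12 for the difference of the response. The retest of the LPS response is no separate support for genes listed for it. Alternatives were pseudocounts of 0.5 and 5, a mean of at least 10 scaled reads, TMM scaling, edgeR 4.0.16 and DESeq2 1.42.0 on the recovered reads, the replicate block, the genes in both tables, 1 fit of all libraries and leaving out each library. Simulated data were used to test some of the fits, not each alternative. The outcome is not given here, so no result rests on it.

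Replicate numbers were taken to pair libraries where same-numbered libraries deviated together. The correlations of their deviations were 0.299, 0.286 and 0.196 across LPS in S80A cells, 0.343, 0.207 and 0.153 across LPS in WT cells, and 0.188, 0.245 and 0.259 across genotypes at 0 hr. Across genotypes at 3 hr the correlations were 0.153, 0.196 and 0.0640, and the libraries were not taken as paired. There, WT replicate 3 correlated more with S80A replicate 2 (0.147) than with S80A replicate 3 (0.0640). Across LPS in WT cells, 3 hr replicate 3 likewise correlated slightly more with 0 hr replicate 2 (0.156) than with 0 hr replicate 3 (0.153). The pairing of WT replicates 2 and 3 is therefore also unclear. Pairing comes from the data, since the labels give only numbers. Exonic length is the union of GENCODE 29 exons. Intervals and floors cover counting error only where so named.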

Additional observations from a re-analysis of the deposited data

Results flagged for a closer look

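Among the members and the genes of the pathway lists, the LPS response differed between S80A and WT cells for CSF2 and 9 others. The test was the limma interaction term over the 12 libraries. Correlated genes outside those lists, such as SELE, were not screened here. Differences are S80A minus WT on the log2(scaled reads + 1) scale, and 14.1% of all listed genes were called. CSF2 differed by 4.76, with every S80A library at 3 hr above every WT library, though edgeR and DESeq2 did not call it (adjusted p = 1.00 and 0.206). CSF2 had no reads at 0 hr, so its limma fit pools groups without spread. The difference was also above 0 for MYC (2.34), FOSL2 (1.45) and RUNX1 (1.26), and these 3 calls passed in every other fit. It was below 0 for PIK3CD (-1.59) and PTPN6 (-1.75), whose calls also passed in every other fit. PTPN6 averaged 367 scaled reads at 3 hr and 1062 at 0 hr in S80A cells, against 1558 at 3 hr and 1317 at 0 hr in WT cells. PIK3CD averaged 562 at 3 hr and 781 at 0 hr in S80A cells, against 4953 at 3 hr and 2289.9 at 0 hr in WT cells. For both, the S80A mean was lower and the WT mean higher after LPS. However, the authors called PIK3CD for LPS only in WT cells and PTPN6 only in S80A cells. The difference was also below 0 for IL6 (-2.24), which edgeR and DESeq2 did not call (adjusted p up to 0.742). At 0 hr IL6 averaged 0 scaled reads in S80A cells and 0.268 in WT cells. Its value is therefore close to the 3 hr difference of -2.52 and does not measure a fold of induction. The calls of ZC3H12A (-1.06), NFKB2 (-1.30) and JUN (-1.05) were lost in 12, 10 and 12 of their 22 other fits, mostly when single libraries were left out, with adjusted p-values of up to 0.0754, 0.0770 and 0.114.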

How the results depend on the processing

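No difference of a member, and no called difference of a pathway gene, changed direction in any alternative. The LPS call of CSF1 in S80A cells (3.14, limma adjusted p = 0.0234) was lost under TMM scaling (2.51, adjusted p = 0.0566). It was also lost without S80A replicate 2 or 3 at 3 hr or replicate 1 at 0 hr. Its values were 2.21 to 4.14 on leaving out each library. With the replicate block the same 3.14 had an SE of 0.24, against 1.04 without it, and a limma adjusted p of 0.000317. Without S80A replicate 1 at both times it was 3.21 (limma adjusted p = 0.000682). TMM scaling of the listed genes shifted the median of all genes by -0.61 in both LPS responses, -0.18 at 0 hr and -0.20 at 3 hr, and it turned the split of higher to lower calls to 1172 and 1324 (1640 and 1154 as deposited) for LPS in S80A cells, and to 492 and 457 (660 and 347) and 798 and 743 (959 and 582) for S80A against WT cells at 0 hr and 3 hr. For the difference of the response the split was 228 and 242 (236 and 228 as deposited), and the median of all genes at 3 hr became -0.0076. Testing only the 1562 genes in both tables gave 1559 and 1562 calls for the LPS responses in S80A and WT cells. The authors had called these genes for both responses, so those counts were largely fixed in advance. Among all 3281 genes they were 2794 and 2973. The genes in both tables gave 409 and 617 calls for the genotypes at 0 hr and 3 hr, and 70 for the difference of the response. Among all genes there were 1007, 1541 and 464, with more genes tested. Leaving out each library gave 497 to 1200 calls at 0 hr, with the fewest without S80A replicate 2 or any WT replicate, and 259 to 663 for the difference of the response, with the fewest without S80A replicate 2 at either time, any WT replicate at 0 hr or WT replicates 2 and 3 at 3 hr. It had 805 calls without S80A replicate 1 at both times. On leaving out each library, CSF1 differed by 3.38 to 4.82 at 0 hr and by 0.87 to 2.39 at 3 hr, and CSF3 by -2.27 to -0.74 at 3 hr and by -3.33 to -1.81 in the response. DESeq2 called CSF1 at 3 hr (1.82, adjusted p = 0.0115) and edgeR did not (adjusted p = 0.0559). For the CSF2 response, edgeR gave 4.54 (adjusted p = 1.00) and DESeq2 4.35 (adjusted p = 0.206), with no reads in any library at 0 hr. For the CSF1 response, the difference was -2.49 with the replicate block across all groups (adjusted p = 0.0267), which called 620 genes, -2.49 with the block within each genotype and -2.43 without S80A replicate 1 at both times, and for CSF3 it was -2.49 with the block within each genotype; these 2 settings were chosen after seeing the data. The replicate block changed no other call of a member. Where no cause is named, the cause was not tested. CSF3 rested on 85 reads in S80A and 185 in WT cells at 3 hr.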
